A study of Homo sapiens with 6 samples.

Results

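The proteasome is the barrel-shaped protease that degrades ubiquitin-tagged proteins. Its genes were followed in LNCaP, an androgen-responsive human prostate cancer cell line, after knockdown of PRMT5, the enzyme that places most symmetric dimethylarginine on proteins. All table rows whose symbol is PSM, a letter from A to G and a number were taken, which gave 43 of 12768 genes. They cover the subunits of the 20S core (PSMA and PSMB genes), and those of the 19S cap with chaperones of its base (PSMC and PSMD). The rest are the activators and the inhibitor PI31 (PSME and PSMF), and the core assembly chaperones (PSMG). A further 5 family genes, PSMA8, PSMB8, PSMB9, PSMB11 and PSMD5, had no row and were not analysed here. Each member was set against its level without knockdown, and PSMB5 was set against the others.

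RNA came from 3 cultures given doxycycline for 4 days, which switches on a stably transfected short hairpin RNA against PRMT5 (the PRMT5 knockdown libraries), and from 3 cultures of the same cells kept for 4 days without doxycycline (the libraries without knockdown). All 6 carried the hairpin plasmid and were grown in RPMI medium with serum, and the series describes 3 biological replicates. The labels list no culture that received doxycycline without the hairpin, so effects of the drug and of the knockdown cannot be told apart. The labels do not say how many hairpins or clones were used.

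In the core, rings of alpha subunits frame rings of beta subunits, and the proteolytic sites sit on PSMB6 (beta 1, caspase-like), PSMB7 (beta 2, trypsin-like) and PSMB5 (beta 5, chymotrypsin-like, the site that bortezomib blocks). The cap binds, unfolds and feeds in ubiquitinated substrates. Subunits stand in fixed proportion in the assembled particle, and in mammalian cells the transcription factor NFE2L1 raises most of their genes together when proteasome activity falls.

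The libraries held 7911853 to 15831938 counted reads, which makes 3 counts worth 0.193 to 0.376 CPM (CPM is a gene's share of the library's counts, scaled between libraries by TMM, the trimmed mean of M values). PRMT5 stood at 9.69, 10.8 and 10.6 CPM in PRMT5 knockdown libraries, against 88.7, 91.96 and 82.8 CPM without knockdown, so every library was on the side its label gives. All 8 luminal prostate markers had rows, and their summed level was 2010 to 2344 CPM after knockdown and 2224 to 2332 CPM without it. None of the 8 passed at an adjusted p under 0.05, and 5 were lower in a fit blocked on replicate number, KLK2 and KRT18 among them, where 5.1% of all genes were called lower. The part of this marker shift in the results that follow was not tested. No basal marker of 3 had a row. Of the markers of other cell types, COL1A1 was at 19.96 ± 1.99 CPM after knockdown and 19.2 ± 4.86 CPM without it (SD, n = 3 each), VWF at 13.1 ± 3.57 and 15.6 ± 1.85 CPM, CD68 at 1.56 ± 0.125 and 1.48 ± 0.134 CPM, and DCN at 1.10 ± 0.750 and 1.597 ± 0.572 CPM, and the other 7 had no row.

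PSMB5, the chymotrypsin-like catalytic subunit, fell by about 1 log2 unit after PRMT5 knockdown, while no other proteasome gene passed the test. PSMB5 was at 73.8, 74.6 and 71.1 CPM in PRMT5 knockdown libraries, against 147, 164 and 136 CPM without knockdown. The 3 knockdown values lay close together and well under the lowest value without knockdown. The group means were 73.2 ± 1.82 CPM and 149 ± 14.5 CPM (SD, n = 3 each), which left 49.2% of the level without knockdown. The log2 fold change was -1.03 (SE 0.084, 95% interval -1.21 to -0.84, edgeR quasi-likelihood adjusted p = 0.00043). Exact permutation over the 6 libraries, 2-sided, gave p = 0.1, the smallest that 3 against 3 libraries allow. With a block for replicate number the log2 fold change was -1.02 (adjusted p = 6.0e-07). Within numbered pairs it was -0.99, -1.14 and -0.93. Of the 43 members, 1 was called (2.33%) without the block and 1 with it, against 1.48% of all genes without the block and 8.31% with it. In the downward direction these backgrounds were 1.14% and 5.1%, and in the upward direction, in which no member was called, 0.337% and 3.21%. The authors' deposited table lists PSMB5 at a log2 fold change of -1.03 with a false discovery rate of 1.12e-20, and the other members there at 0.39 or above. That table calls 3.7% of all genes under 0.05. PSMB5 ranked 6 by p over the 12768 genes, and 21 of the 146 genes called lower had a log2 fold change at or below its own. In bulk RNA, less PSMB5 mRNA in every cell and fewer cells with the mRNA cannot be told apart.

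The gene lies on chromosome 14 from 23016543 to 23035230 on the minus strand (GRCh38, GENCODE 29). Its promoter windows are shown because PSMB5 was the only called member. RefSeq (GRCh38.p14) gives a pair of start sites, each with 250 bases before and 50 bases after the start. Capitals mark AAGATGGC, a form of the core to which the factor YY1 binds.
PSMB5 upstream start, chr14:23035171-23035470, minus strand: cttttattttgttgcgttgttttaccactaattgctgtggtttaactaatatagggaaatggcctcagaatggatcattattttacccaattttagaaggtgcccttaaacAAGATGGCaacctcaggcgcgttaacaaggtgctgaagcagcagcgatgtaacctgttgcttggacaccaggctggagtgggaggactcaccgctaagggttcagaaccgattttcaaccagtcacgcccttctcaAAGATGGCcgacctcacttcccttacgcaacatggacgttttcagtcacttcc
PSMB5 downstream start, chr14:23034851-23035150, minus strand: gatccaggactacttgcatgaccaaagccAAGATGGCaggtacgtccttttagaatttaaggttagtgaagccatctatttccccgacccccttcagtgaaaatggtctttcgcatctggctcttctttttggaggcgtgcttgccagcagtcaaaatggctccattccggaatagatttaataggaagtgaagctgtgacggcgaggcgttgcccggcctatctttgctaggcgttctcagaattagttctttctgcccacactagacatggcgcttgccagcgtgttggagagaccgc

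RefSeq promoters were found for 37 of the 43 members, 45 windows in all, and each motif was searched on both strands. AAGATGGC occurred in 5 of the 45 member windows (11.1%), against 2.89% of all 35116 windows. The 5 include the pair of PSMB5 windows, and 4 of the 37 members held it (PSMA2, PSMB5, PSMC5 and PSMD11). The 6 members without a promoter were not searched. Transcripts of PSMB6 and PSMB7 also hold AAGATGGC, in identical runs that they share with the PRMT5 mRNA. Those matches are in transcripts, whereas the PSMB5 matches were found in promoter windows, so they are not a like comparison. Of the catalytic genes searched, only PSMB5 had AAGATGGC in a window. TGACNNNGC, the core of the antioxidant response element that NFE2L1 and NFE2L2 bind, occurred in 28.9% of member windows against 13.3% of all windows, and neither PSMB5 window held it. CCGGAAG, an ETS factor core, occurred in 31.1% against 10.3%, and again in neither PSMB5 window. CCAAT, the NF-Y core, occurred in 40% against 34.6%, with PSMB5 among the 18 members that hold it. None of the motifs contains another, though CCGGAAG ends in the 3 letters with which AAGATGGC begins, and a match or its lack describes these letters in these windows and nothing about a factor's binding.

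Neither of the other catalytic subunits passed the test. PSMB6 was at 72.7, 81.3 and 76.3 CPM after knockdown, against 73.6, 89.3 and 79.7 CPM without it. Its groups overlapped throughout (log2 fold change -0.07, SE 0.090, 95% interval -0.28 to 0.13, adjusted p = 0.76). PSMB7 was at 69.6, 72.7 and 71.3 CPM after knockdown, against 68.2, 90.5 and 65.2 CPM without it, where replicate 2 stood above the rest (log2 fold change -0.07, SE 0.12, 95% interval -0.33 to 0.19, adjusted p = 0.84). As read shares, not scaled by length, the ratio of PSMB5 to PSMB6 was 1.01, 0.917 and 0.933 in PRMT5 knockdown libraries, against 2.00, 1.84 and 1.70 without knockdown. The ratio to PSMB7 was 1.06, 1.03 and 0.997 after knockdown, against 2.15, 1.81 and 2.08 without it. PSMB10, the only gene of the interferon-inducible immunoproteasome sites with a row and the counterpart of PSMB7, was at 27.9, 29.6 and 25.96 CPM after knockdown, against 32.5, 26.4 and 31.2 CPM without it, which overlap (log2 fold change -0.12, 95% interval -0.35 to 0.12, adjusted p = 0.68).

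**Figure D1:**
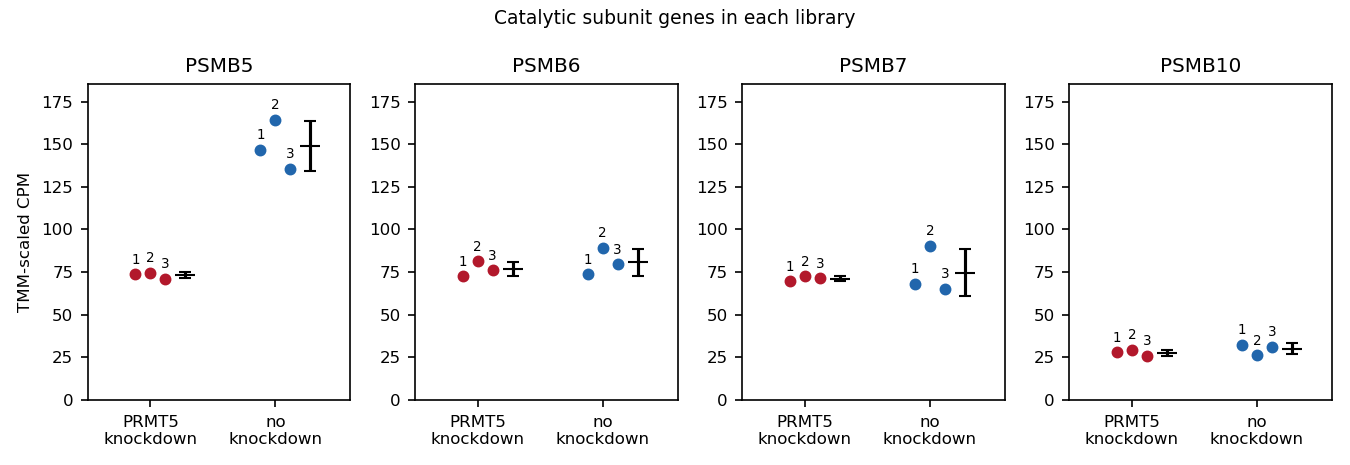
TMM-scaled CPM (linear axis from 0) of PSMB5, PSMB6, PSMB7 and PSMB10 in each library, numbered by replicate, with PRMT5 knockdown in red on the left and no knockdown in blue on the right. Black marks are the mean and SD of 3 libraries. The PSMB5 libraries after knockdown lie between 71.1 and 74.6 CPM, under all 3 libraries without knockdown, while the groups of PSMB6, PSMB7 and PSMB10 overlap.

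PSMB5 was the only called gene of the 14 measured genes of the 20S core, and its place among them changed. The difference between log2 CPM of PSMB5 and the mean log2 CPM of the other 13 core genes was -0.58, -0.65 and -0.67 in PRMT5 knockdown libraries, against 0.43, 0.30 and 0.28 without knockdown. The group means of this difference were -0.63 ± 0.047 and 0.34 ± 0.081 (SD, n = 3 each), a shift of -0.97. No test was run on this shift. Over the same libraries the mean log2 CPM of those 13 genes was 6.83 ± 0.040 after knockdown and 6.88 ± 0.16 without it. PSMB5 took 4.48%, 4.25% and 4.25% of the reads of the 14 core genes after knockdown, against 8.59%, 7.97% and 7.83% without it.

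Levels of different genes were compared per kilobase of the gene length that the table gives. Without knockdown PSMB5 ranked 6 of the 14 core genes in each library, at 102 ± 9.96 CPM per kilobase, next to PSMB3 above it (143 ± 13.1) and PSMB6 below it (92.7 ± 9.07). The spreads of PSMB5 and PSMB6 overlap there. After knockdown it ranked 12 of 14 in each library, at 50.3 ± 1.25 CPM per kilobase, below PSMA2 (63.1 ± 2.69) and above PSMA5 (27.2 ± 2.05). Relative to the median of the other core genes its level per kilobase was 57.6 ± 2.84% after knockdown and 116 ± 6.997% without it. PSMB2 and PSMA5, at the bottom of the order, have the longest gene models of the core in the table, so their place depends on that length.

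**Figure D2:**
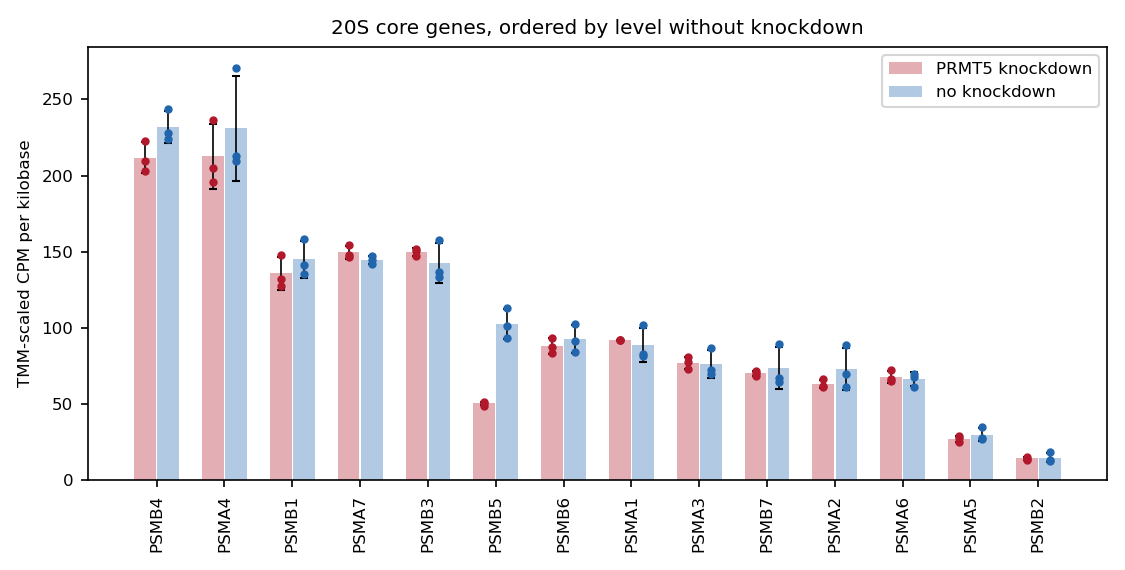
TMM-scaled CPM per kilobase (linear axis from 0) of the 14 measured 20S core genes, ordered by their mean without knockdown. Bars are means, points are libraries and error bars are SDs (n = 3 each), with PRMT5 knockdown in red left of no knockdown in blue. PSMB5 stands at 50.3 CPM per kilobase after knockdown and 102 without it, and for the other 13 genes the knockdown mean is within 10 CPM per kilobase of the other group's except at PSMB4 and PSMA4.

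The alpha ring, whose N-termini gate the entry to the chamber, held 7 measured genes and none passed in either direction. Without the block 1.48% of all genes passed. The median log2 fold change was 0.01, and 3 of the 7 lay below 0. PSMA2 was the lowest, at 90.6, 96.9 and 89.6 CPM after knockdown, against 89.7, 129 and 102 CPM without it. These groups overlap, with replicate 2 without knockdown standing high (log2 fold change -0.21, SE 0.12, adjusted p = 0.48). PSMA1 was the highest, at 189 CPM in each PRMT5 knockdown library, against 168, 209 and 170 CPM without knockdown (log2 fold change 0.05, adjusted p = 0.85). The 4 beta subunits without an active site likewise had no call, with log2 fold changes between -0.13 for PSMB4 (196 ± 9.36 CPM after knockdown and 214 ± 9.67 CPM without it, adjusted p = 0.45) and 0.07 for PSMB3 (adjusted p = 0.75).

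In the 19S cap none of 17 genes passed, with or without the block, against 1.48% of all genes without it and 8.31% with it. Groups did not overlap for 3 lower and 2 higher cap genes (29.4%, against 19.8% of all genes). In the ATPase ring that unfolds substrates the median log2 fold change over 6 genes was -0.07. PSMC3, an ATPase of that ring, was at 81.8, 77.4 and 78.7 CPM after knockdown, against 82.6, 96.7 and 83.9 CPM without it (log2 fold change -0.15, SE 0.083, adjusted p = 0.47). The groups do not overlap but come within 1 CPM of each other. PSMC1, the highest of the ring by fold change (0.38, SE 0.28, adjusted p = 0.58), had 2.09, 1.96 and 1.61 CPM after knockdown, against 1.56, 1.54 and 1.13 CPM without it, from 22, 21 and 25 reads after knockdown and 17, 15 and 9 reads without it. The groups are apart by under 0.1 CPM. Per kilobase PSMC1 averaged 1.19 CPM after knockdown and 0.888 CPM without it, while the other 5 ATPase genes averaged 39.2 to 65.7 and 41.1 to 70.9 CPM per kilobase. GENCODE 29 lists 13 pseudogenes named after PSMC1, the most for any member, so reads of PSMC1 may be split or dropped among copies and its level is uncertain.

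The scaffold subunits of the base, PSMD1 and PSMD2, and the ubiquitin receptor PSMD4 had log2 fold changes of -0.11, -0.15 and -0.02. PSMD2 was at 241, 231 and 246 CPM after knockdown, against 271, 276 and 249 CPM without it, groups that do not overlap but differ by less than the test requires (SE 0.071, adjusted p = 0.39). In the lid, which carries the deubiquitinase PSMD14, the median over 8 genes was 0.00 on the log2 scale, with 3 below 0. The lowest was PSMD3, at 109, 122 and 109 CPM after knockdown, against 125, 124 and 124 CPM without it (log2 fold change -0.14, SE 0.073, adjusted p = 0.45), with replicate 2 after knockdown just under the other group. The highest was PSMD11, a lid subunit, at 81.7, 89.8 and 90.2 CPM after knockdown, against 77.3, 73.6 and 82.4 CPM without it (log2 fold change 0.17, SE 0.0799, adjusted p = 0.39), where the groups overlap at their edges. PSMD14 itself was at 80.9 ± 1.74 CPM after knockdown and 84.5 ± 9.28 CPM without it (log2 fold change -0.06, adjusted p = 0.80).

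Among the regulators that dock on the core, PSME1, a subunit of the PA28 activator, came closest to the threshold of the members other than PSMB5. It was at 91.4, 110 and 94.7 CPM after knockdown, against 111, 118 and 110 CPM without it, and the highest knockdown library overlaps the lowest of the others (log2 fold change -0.19, SE 0.086, adjusted p = 0.35, and 0.089 with the block). Its partner PSME2 was at 85.5 ± 2.51 CPM after knockdown and 87.4 ± 1.91 CPM without it (log2 fold change -0.03, adjusted p = 0.88). On the log2 scale PSME3, the nuclear activator, differed by -0.13 (adjusted p = 0.51). PSME4, the large activator PA200, was at 125, 105 and 139 CPM after knockdown, against 120, 97.2 and 120 CPM without it, and the groups overlap (log2 fold change 0.13, adjusted p = 0.67). The inhibitor gene PSMF1 differed by 0.05 (adjusted p = 0.82).

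The chaperones that build the core were not called either. PSMG1, which pairs with PSMG2 on the alpha ring, was at 23.0, 23.0 and 20.9 CPM after knockdown, against 23.7, 26.1 and 25.0 CPM without it (log2 fold change -0.16, SE 0.097, adjusted p = 0.51). The groups do not overlap. PSMG2 had a log2 fold change of 0.03, PSMG3 one of -0.08 and PSMG4, the lowest of the 4 per kilobase, at 7.52 ± 0.684 CPM after knockdown and 7.16 ± 0.730 CPM without it, one of 0.07. Of the chaperones of the base, PSMD9 was at 63.1 ± 3.19 CPM after knockdown and 62.9 ± 4.38 CPM without it, and PSMD10, also known as gankyrin, differed by -0.03 on the log2 scale (adjusted p = 0.91).

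**Figure D3:**
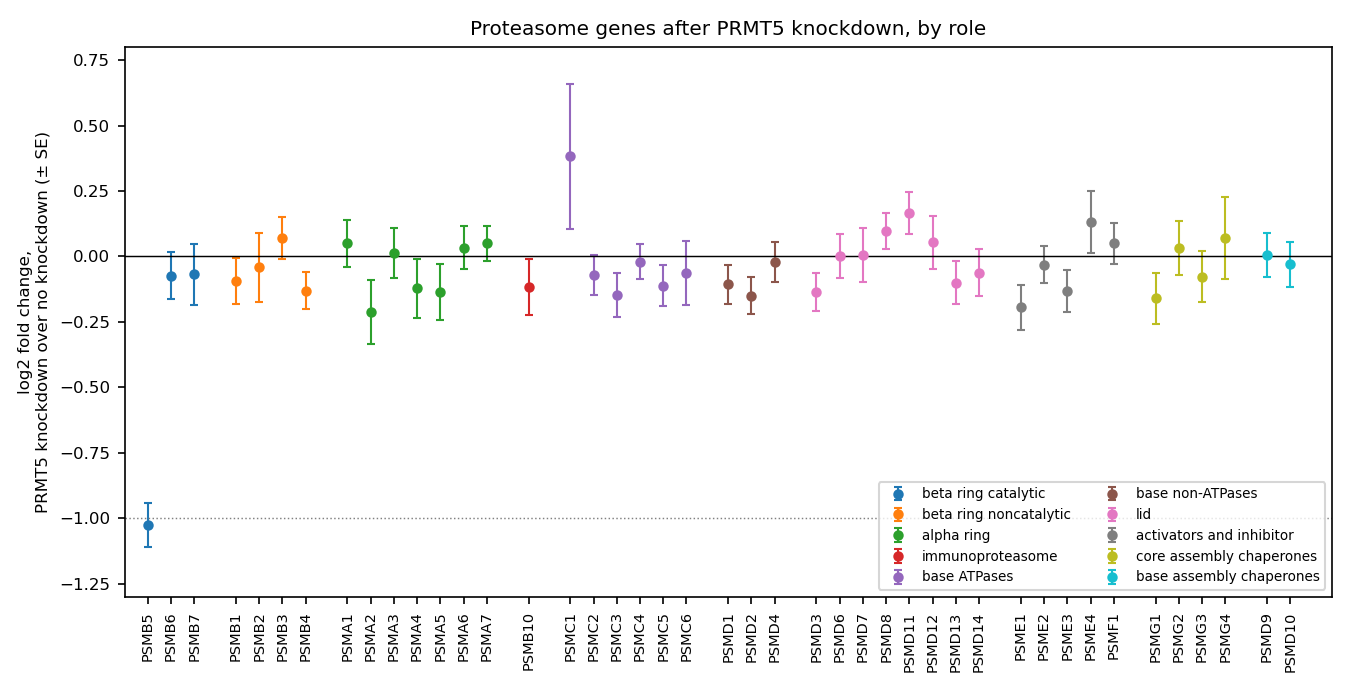
Log2 fold change (PRMT5 knockdown over no knockdown, edgeR) of each of the 43 measured members, coloured by role, with its standard error. The dotted line marks -1. PSMB5 lies at -1.03, PSMC1 at 0.38 with a wide error, and the other 41 lie within 0.25 of 0.

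Over all 43 members the median log2 fold change was -0.06, against 0.00 for all genes, and 27 of 43 (62.8%) lay below 0, against 50.4% of all genes. Without replicate 2 of the group without knockdown this median was 0.02, without knockdown replicate 1 it was -0.01, and without replicate 2 of both groups it was -0.0078, so its direction depends on which libraries enter. Apart from PSMB5, the lowest of the lower 95% bounds was -0.48 on the log2 scale, so for each of the other 42 genes a fall as large as that of PSMB5 lies outside the interval. Groups did not overlap for 9 members (20.9%), against 19.8% of all genes. Of the 9, 7 were lower (11.6% of all genes) and 2 higher (8.22% of all genes). An unadjusted p under 0.05 was reached by 2 members, PSMB5 and PSME1, and by 14% of all genes.

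Replicate 2 without knockdown carried the highest level of its group for 34 of 43 members (79.1%, against 40.8% of all genes). In the knockdown group replicate 2 was the highest for 23 of 43 (53.5%, against 40.6% of all genes). With replicate 2 of both groups left out, a fit chosen after seeing the data, 16.8% of all genes and 4 members passed. These were PSMB5 (log2 fold change -0.97), PSME1 (-0.24, adjusted p = 0.0080), PSMD3 (-0.20, adjusted p = 0.024) and, upward, PSMA1 (0.16, adjusted p = 0.038). What sets replicate 2 apart was not tested. PSMB5 was called lower in each of the 13 alternative fits, with log2 fold changes of -1.09 to -0.95 and adjusted p of 1.64e-18 to 0.0090. Among them, the fit with no filter on low counts only repeats the main fit, because the filter removed no gene. The 13 fits differed widely in how many genes they called. The share of all genes was 1.45% with DESeq2 size factors, 2.37% with the DESeq2 Wald test, 1.5% with limma-voom, 1.48% with no filter on low counts and 1.53% of the 12285 genes with a mean of at least 2 CPM. It was 0.188%, 3.49% and 0.235% without knockdown replicate 1, 2 or 3, and 0.407%, 2.11% and 0.227% without replicate 1, 2 or 3 of the group without knockdown.

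Genes that work with the proteasome but have other names showed no call among 19 measured, with or without the block. The shares of all genes called were 1.48% without the block and 8.31% with it. POMP, the chaperone of the beta ring that is degraded as the core matures, was at 65.4, 57.1 and 57.3 CPM after knockdown, against 56.3, 71.8 and 63.4 CPM without it, and the groups overlap (log2 fold change -0.09, adjusted p = 0.75). The smallest p values belonged to the stress-induced ZFAND2A (log2 fold change -0.27, adjusted p = 0.37) and to UBE3C, a ubiquitin ligase of the cap (0.15, adjusted p = 0.39). The median was 0.05. Of 6 ubiquitin and ubiquitin-activating genes none passed (UBA6 0.10, adjusted p = 0.58, and UBB 0.09, adjusted p = 0.62).

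Of 9 regulators of proteasome genes none passed without the block, where 1.48% of all genes did. With the block 1 of the 9, NFE2L2, was called higher, as were 3.21% of all genes. NFE2L1 was at 296, 308 and 283 CPM after knockdown, against 341, 300 and 333 CPM without it (log2 fold change -0.13, adjusted p = 0.48), and NGLY1, the enzyme that deglycosylates it, differed by -0.15 on the log2 scale (adjusted p = 0.43). NFE2L2, its relative in the oxidative stress response, was at 80.3, 62.4 and 75.8 CPM after knockdown, against 63.5, 45.7 and 62.7 CPM without it, higher in each numbered pair (log2 fold change 0.35, SE 0.14, adjusted p = 0.30, and 0.0086 with the block). Its 7 listed targets outside the proteasome had log2 fold changes between -0.32 and -0.02, all below 0 (50.4% of all genes were), and none passed without the block. With the block 1 of the 7, NQO1, was called lower, as were 5.1% of all genes. TXNRD1 and GCLC were the closest to 0 (both -0.02, adjusted p = 0.94 and 0.97). NQO1 was at 156, 162 and 155 CPM after knockdown, against 182, 215 and 192 CPM without it (log2 fold change -0.32, SE 0.078, adjusted p = 0.086, and 0.0053 with the block), and SRXN1 differed by -0.18 (adjusted p = 0.29).

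The immunoproteasome serves antigen presentation, and of 11 genes listed with it 2 fell and none rose, without the block and with it. Of all genes, 1.14% were called lower and 0.337% higher without the block, and 5.1% and 3.21% with it. HLA-C, an MHC class I heavy chain, was at 38.9, 45.8 and 37.8 CPM after knockdown, against 61.4, 60.1 and 58.5 CPM without it, groups that do not overlap (log2 fold change -0.56, SE 0.093, adjusted p = 0.019). HLA-B was at 20.3, 24.4 and 18.5 CPM after knockdown, against 34.6, 30.4 and 33.1 CPM without it (log2 fold change -0.64, SE 0.12, adjusted p = 0.029). Reads of the near-identical HLA class I genes could be assigned to the wrong copy, which leaves each value uncertain. Both genes were also called with the block (adjusted p = 0.00066 for HLA-C and 0.0021 for HLA-B). Their light chain B2M differed by -0.18 on the log2 scale (adjusted p = 0.27), and the peptide transporter genes TAP1 and TAP2 had 0.14 and -0.35 (adjusted p = 0.62 and 0.37).

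PSMB5 lies 86957 bases from PRMT5 on chromosome 14, on the same strand. Within 250000 bases of PSMB5, GENCODE 29 has 21 protein-coding genes, of which 13 had rows, PRMT5 among them. The other 12 had log2 fold changes between -0.35 and 0.18, with 8 below 0, against 50.4% of all genes. None of the 12 passed without the block, and 1, HAUS4, passed with it. Of all genes, 1.48% passed without the block and 8.31% with it. Of the 12, groups did not overlap for 3 that were lower (HAUS4, C14orf93 and CDH24) and 1 that was higher (OXA1L), against 11.6% and 8.22% of all genes. The 3 measured genes between PRMT5 and PSMB5 were HAUS4, AJUBA and C14orf93. HAUS4, a subunit of the spindle augmin complex, was at 34.7, 44.6 and 38.7 CPM after knockdown, against 49.8, 50.5 and 50.4 CPM without it, groups that do not overlap (log2 fold change -0.35, SE 0.10, adjusted p = 0.14, and 0.018 with the block). AJUBA, a LIM-domain scaffold gene, differed by -0.20 on the log2 scale (adjusted p = 0.37) and C14orf93, the nearest neighbour at a gap of 6376 bases, by -0.22 (adjusted p = 0.50). On the far side the nearest gene is PSMB11, the thymus-specific core subunit, which had no row. Beyond it CDH24, a cadherin gene, had -0.29 (adjusted p = 0.36) and ACIN1, an exon-junction-associated protein gene, 0.02 (adjusted p = 0.92). MRPL52, LRP10, OXA1L, RBM23, C14orf119, SLC7A8 and HOMEZ lay between -0.10 and 0.18. The other members on chromosome 14, PSMA3, PSMA6, PSMC1, PSMC6, PSME1 and PSME2, are not in this window and none passed.

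**Figure D4:**
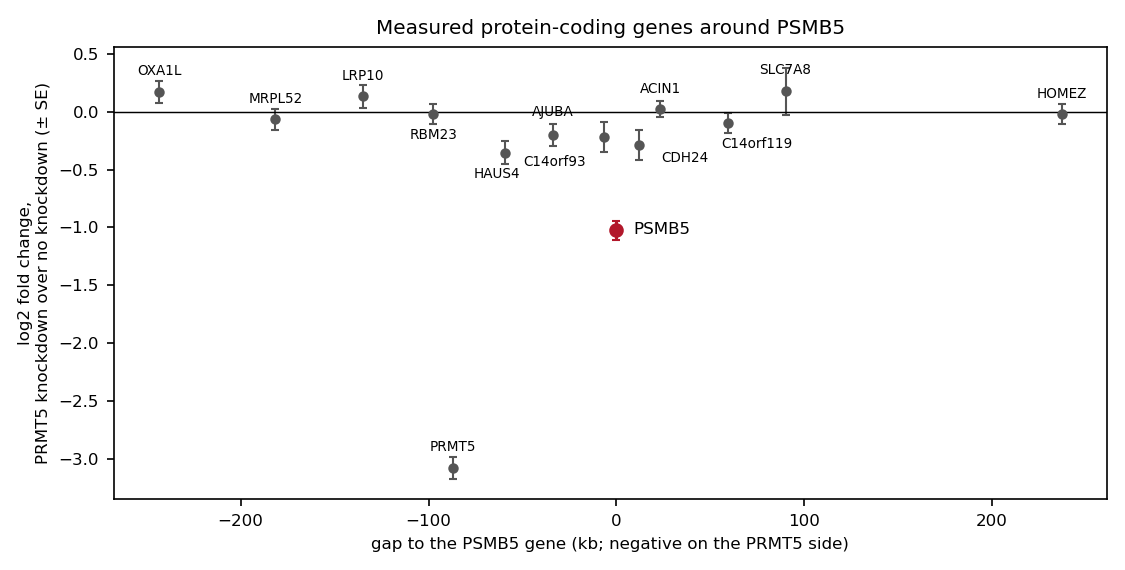
Log2 fold change (PRMT5 knockdown over no knockdown, edgeR, with standard error) of the measured protein-coding genes around PSMB5, against the gap to the PSMB5 gene in kilobases, negative on the side of PRMT5. PSMB5 (red) lies at -1.03 and PRMT5 at -3.08, and the other 12 genes lie between -0.35 and 0.18.

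The labels do not give the hairpin's sequence, so the whole PRMT5 mRNA was compared with the members. Over the protein-coding transcripts of GENCODE 29, the longest identical run that PSMB5 shares with PRMT5 was 11 bases, a length that 12 other members also have and 24 exceed. The longest was the 18 bases of PSMB6. Where the hairpin lies in PRMT5 is not known, so these lengths do not tell whether it pairs with any member. Such pairing was not tested. The runs of PSMB5 and PSMB6, shown in capitals because every base is shared, were as follows.
PSMB5 and PRMT5: GGAGGTGCAGT
PSMB6 and PRMT5: GAGGAGAAAGATGGCGGC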

How the data were processed

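The deposited table holds raw counts of reads per gene and library. It also holds log2 CPM (not used here), log2 fold changes, p-values and false discovery rates that the authors computed for doxycycline against none, per the file headers. The submitters' processing notes name bcl2fastq, STAR 2.5, Subread 1.6.5 with its featureCounts, edgeR 3.20.8 and hg38. Strand setting, annotation and any filter are not stated there, so reads of overlapping antisense genes cannot be told apart. Only 15.9% of 12009 gene positions in the table overlap GENCODE 29 on GRCh38, so positions in the text come from GENCODE 29, where all 43 members matched by name.

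The raw counts went into edgeR 4.0.16 (R 4.3.3) with TMM scaling, filterByExpr (at least 10 counts, 15 in total; no gene was lost), a robust quasi-likelihood fit on group alone and Benjamini-Hochberg adjustment over 12768 genes, called under 0.05. The SE is the unshrunken log2 fold change over the root of its F, and 95% intervals use the fit's degrees of freedom. Log2 CPM carry a prior count of 2, and the CPM worth of 3 counts covers counting error only. DESeq2 1.42.0, limma 3.58.1 (voom), other filters, a replicate block and leaving out each library were the alternatives. Exact permutation used scipy 1.17.1. The edgeR fits, with the block and without it, were tested on simulated data.

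Deviations from the group means correlated by 0.34, 0.45 and 0.17 between libraries numbered 1, 2 and 3. The numbers were taken as pairs in the blocked fit and the within-pair values, while the main fit used group alone. Knockdown library 1 with no-knockdown library 3 (0.23), and knockdown 3 with no-knockdown 1 (0.20), correlated above the 0.17 of pair 3. The labels do not say that a number marks a shared culture, so pairs 1 and 3 are uncertain. Replicate counts differed by more than sampling noise (chi-square per degree of freedom 1.73 to 20.4).

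PRMT5 and PSMB5 were named always. Named besides were members called in either fit, the highest and lowest of each role group, called or otherwise lowest-p genes of the other lists, and measured genes within 250000 bases of PSMB5. Genes such as PSMD14, POMP, NFE2L1, NGLY1, B2M, TAP1 and TAP2 were added for their role. Members and lists were chosen with earlier results of these data known.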

Additional observations from a re-analysis of the deposited data

How the results depend on the processing

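The count of proteasome members called was 1, PSMB5, in each alternative chosen with the design, including the fits that leave out 1 library (1 to 1), and 4 without replicate 2 of both groups, a fit chosen after seeing the data. The log2 fold changes of PSMB5 and PRMT5 kept their direction and call in every alternative run, and the replicate block changed no call of a member. Without 1 library, PSMB5 ran from -1.09 to -0.95 and PRMT5 from -3.12 to -3.03. The shift of PSMB5 against the other core genes ran from -1.002 to -0.93 over the same fits. The count over all genes, 189 (146 lower, 43 higher), was 303 by DESeq2, 1061 with the replicate block (651 lower, 410 higher), 2141 without replicate 2 of both groups, and 24 to 445 when 1 library was left out (24 without knockdown replicate 1, 30 without knockdown replicate 3, 52 without no-knockdown replicate 1, 29 without no-knockdown replicate 3, 445 without knockdown replicate 2). The cause was not tested. The members' median log2 fold change, -0.06, ran from -0.086 to 0.021 when 1 library was left out, and of those fits it was positive only without no-knockdown replicate 2. Without replicate 2 of both groups it was -0.0078.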
